A study of Mus musculus with 2 samples.

Results

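The Kcnq1-Cdkn1c domain is the imprinted cluster at the distal end of mouse chromosome 7. Its members here are all entries of the deposited catalog of known imprinted genes that start beyond 150 Mb of chr7 in mm9, from Ascl2 to Osbpl5, and 14 of the 128 catalog entries met this rule. They name 13 genes, because Slc22a18 is listed under both Tssc5 and Slc22a1I/Impt1. In the catalog 13 of the entries carry the mark of a maternally expressed gene and 1, Kcnq1ot1, that of a paternally expressed one. Older names in the catalog are Mash2 for Ascl2, Cdknlc for Cdkn1c, Tssc3 for Phlda2, Nap2 for Nap1l4 and Obph1 for Osbpl5.

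The RNA came from whole brains of E17.5 F1 embryos, with 1 sample and 1 file of reads for each direction of the cross. Each file is counted below as 1 library. BxC is the F1 of a C57BL/6J mother and a CastEi/J (CAST/EiJ in the study) father, and CxB is the F1 of a CastEi/J mother and a C57BL/6J father. No treatment was given, and the CxB brain was from a male by the study's methods. By the same methods BxC brains of both sexes were taken, and each library was made from its own brain without pooling. The sex of the BxC brain in the file, and whether the file holds more than 1 of the BxC libraries, are not given in the sources used here. Polyadenylated RNA was sequenced in single reads of 36 bases, and the files hold 128944754 uniquely aligned reads for BxC and 109719746 for CxB.

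Genes of this cluster are imprinted through a control region inside Kcnq1 that is methylated on the maternal chromosome. On the unmethylated paternal chromosome it acts as the promoter of Kcnq1ot1, a long noncoding RNA that runs antisense to Kcnq1, and the RNA and its transcription silence neighbouring genes in cis. Kcnq1, Cdkn1c, Slc22a18 and Phlda2 are silenced in embryo and placenta alike, whereas most of the more distant genes are known as imprinted in the placenta alone. Bases of the reads are not part of the analysed files. All values below therefore sum both alleles, and what each allele gave was not analysed here.

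The domain divided sharply by level in these brains. A level here is RPKM, the reads that overlap the exons, scaled to exon length in kilobases and to library total in the usual way. Each is given with an exact 95% Poisson interval that covers only the counting error of independent reads. Reads copied from the same molecule are not independent, and where they occur the interval is too narrow. Nap1l4, Cd81, Cdkn1c, Tssc4 and Osbpl5 were at 8.60 to 76.0 RPKM in BxC and 9.98 to 75.9 in CxB, Kcnq1ot1 was below 1, and the other 8 entries were at or under 0.389 in BxC and 0.518 in CxB. All 14 entries had at least 1 read in each library and 11 had at least 10. Of all annotated protein-coding genes, 74.1% had at least 10 reads in BxC and 73.4% in CxB, so this count does not set the domain apart. Over the 14 entries the median was 0.389 RPKM in BxC and 0.444 in CxB, beside 1.57 and 1.58 over 22380 annotated protein-coding genes. By RPKM the order of the first 6 was the same in both libraries, namely Nap1l4, Cd81, Cdkn1c, Tssc4, Osbpl5 and Kcnq1ot1, with no overlap between the intervals of neighbours. Among the lower 8 the order changed between the libraries, for example with Slc22a18 above Kcnq1 in BxC and below it in CxB.

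**Figure D1:**
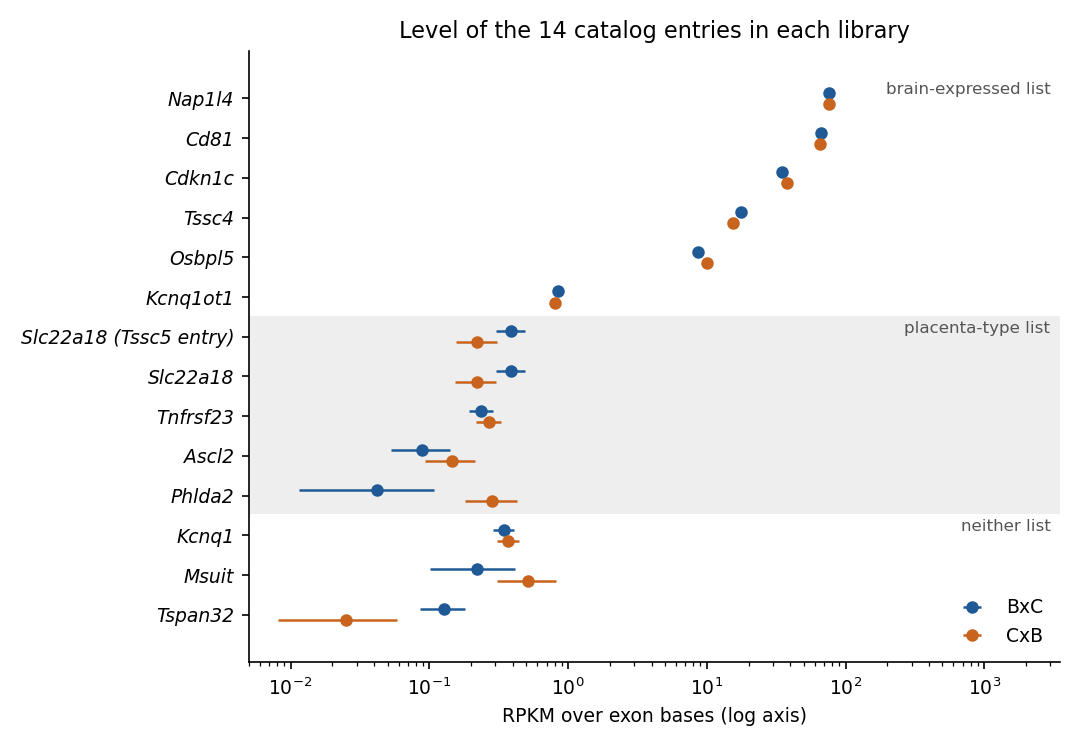
Level of each catalog entry in BxC (blue) and CxB (orange), in RPKM over exon bases on a log axis, with 95% Poisson intervals and 1 library for each cross. The 6 entries of the brain-expressed list lie at or above 0.811 RPKM, and the 5 entries of the placenta-type list (shaded) at or below 0.389.

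Nap1l4, a histone chaperone of the nucleosome assembly family, was the highest member by RPKM. It had 22371 reads in BxC and 19010 in CxB, which gave 76.0 RPKM (75.03 to 77.03) and 75.9 RPKM (74.8 to 77.0). These 2 levels lay within each other's interval. Of the annotated protein-coding genes, 98.4% in BxC and 98.5% in CxB had a lower level. Cd81, a tetraspanin of the cell surface, followed with 12666 and 10552 reads, or 67.0 RPKM (65.8 to 68.2) in BxC and 65.6 (64.4 to 66.9) in CxB. First place depended on how reads were counted. With each distinct alignment counted once, Cd81 stood higher, at 44.4 and 46.9 against 41.1 and 40.2 for Nap1l4. Over start positions whose 36 bases occur once in the genome, Cd81 had 74.0 and 72.4 and Nap1l4 58.9 and 62.8. Both genes were covered over nearly their whole exon length, 99.1% and 99.5% of the bases for Nap1l4 and 100% in each library for Cd81.

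Cdkn1c encodes p57Kip2, an inhibitor of cyclin-dependent kinases that takes dividing precursors out of the cell cycle, and is the member best known for a role in the developing brain. It had 14423 reads in BxC and 13258 in CxB, or 35.1 RPKM (34.6 to 35.7) and 38.0 RPKM (37.3 to 38.6). The catalog entry holds introns and 840 bases upstream of the annotated gene, in which only 7 and 15 reads lay, and lacks the last 356 bases, in which 1709 and 1399 lay. Over the exons of the annotated gene (GENCODE vM1, the same build, chr7:150644255-150646955, minus strand) the level was 63.7 RPKM in BxC and 67.7 in CxB. On that measure Cdkn1c stood above Cd81, which had 44.8 and 43.6, and below Nap1l4. Among 7 annotated CDK inhibitor genes Cdkn1c was the highest in both libraries, followed by Cdkn1a at 24.0 and 24.5 RPKM and Cdkn1b at 13.03 and 14.2. Of the inhibitors that hold back the kinases of early G1, Cdkn2c had 4.09 and 3.64, and Cdkn2a, Cdkn2b and Cdkn2d were lower, the highest of them being Cdkn2d at 0.433 and 0.380.

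Reads of Cdkn1c were concentrated in its short first exon. This exon of 198 bases held 7698 of the gene's reads in BxC (48.6%) and 7101 in CxB (49.5%), that is 38879 and 35864 reads per kb. Exons 2, 3 and 4 had 6123, 3683 and 3763 reads per kb in BxC and 5612, 3237 and 3077 in CxB. In BxC 2568 of the reads in exon 1 (33.4%) began at 1 position and strand, and in CxB 1159 (16.3%) began at that same place, 80 bases from the annotated 5′ end. Leaving exon 1 out, the gene had 8157 and 7248 reads, and the ratio of CxB over BxC was 0.06 (0.02 to 0.11) on the log2 scale, against 0.12 (0.07 to 0.16) in exon 1 alone. That 1 position was lower in CxB while exon 1 as a whole was higher, so the ratios of exon 1 and of the whole gene depend on it. Ratios without that position were not counted.

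Spliced reads showed that exon 1 of Cdkn1c was joined to 3 different acceptors. These junctions are printed because they differ in which coding start they keep. Each line gives the last 15 bases of exon 1 and the first 15 bases after the junction, 5′ to 3′ on the minus strand of mm9, with the first 3 bases of the joined exon in capitals.
Acceptor 1, intron chr7:150646622-150646757: tcaccaatcagccagCCTtcgaccatgggc
Acceptor 2, intron chr7:150646584-150646757: tcaccaatcagccagCAGaacagcgatgga
Acceptor 3, intron chr7:150646581-150646757: tcaccaatcagccagAACagcgatggaacg

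Acceptors 1 and 2 are annotated in GENCODE vM1 and lie 38 bases apart. Acceptor 3 is not in that annotation, though the gene models used by the authors may hold it, and lies 3 bases beyond acceptor 2. All 3 introns begin with GT and end with AG. The genome around acceptors 2 and 3 is a tandem pair of AG ends, printed here with the last 15 bases of the intron, its AG in capitals, and 12 bases of the exon.
Acceptor 2, chr7:150646572-150646598, minus strand: cgtgtacctccgcAGcagaacagcgat
Acceptor 3, chr7:150646569-150646595, minus strand: gtacctccgcagcAGaacagcgatgga

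The annotation gives Cdkn1c coding starts at the ATG of position 150646612 and at the ATG of position 150646573. Acceptor 1 keeps both, with 9 bases of joined exon ahead of the first ATG, whereas acceptors 2 and 3 leave out the first and have 10 and 7 bases ahead of the second. Acceptor 2 had the most spliced reads, 226 of 374 in BxC (60.4%, 55.3 to 65.4, exact binomial) and 180 of 324 in CxB (55.6%, 49.96 to 61.0). Acceptor 1 had 97 (25.9%, 21.6 to 30.7) and 92 (28.4%, 23.5 to 33.6). Acceptor 3 had 51 (13.6%, 10.3 to 17.54) and 52 (16.0%, 12.2 to 20.5), from 18 and 21 distinct alignments. The shares of each acceptor overlapped between the libraries. When only reads with at least 8 bases on each side were counted, acceptor 3 had 16.2% and 18.0% and acceptor 1 had 17.3% and 21.6%. Over distinct alignments acceptor 3 had 28.1% and 31.3%, acceptor 1 28.1% and 22.4%, and acceptor 2, still the highest, 43.8% and 46.3%. The order of acceptors 1 and 3 thus depended on how reads were counted. It was the only junction of the members outside GENCODE vM1 with at least 10 reads in each library.

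**Figure D2:**
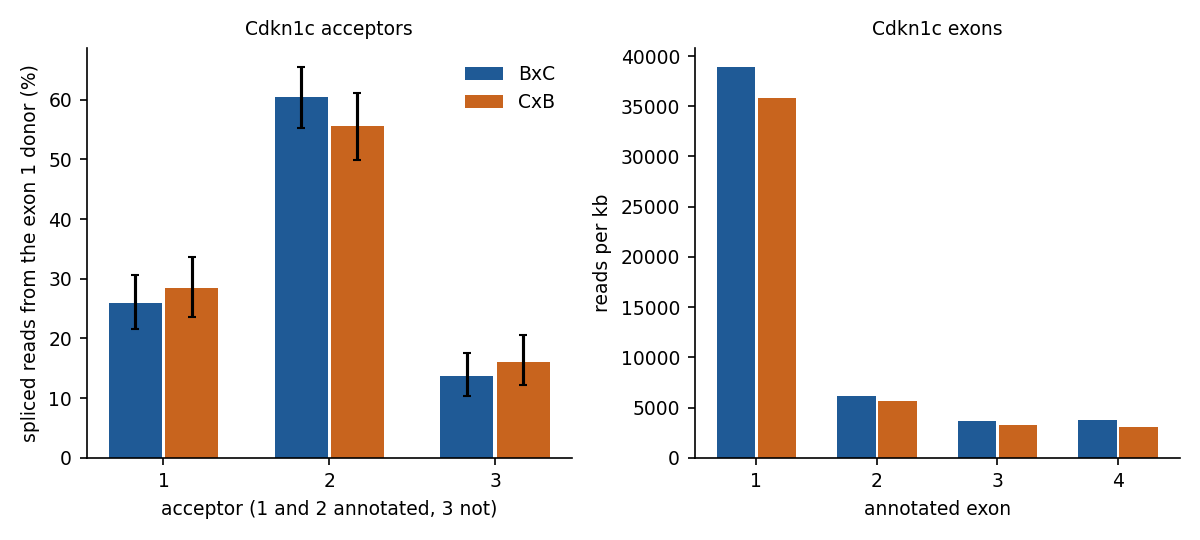
Left, share of the spliced reads from the exon 1 donor of Cdkn1c that join each acceptor, with exact 95% binomial intervals (374 reads in BxC, 324 in CxB). Right, reads per kb in the 4 annotated exons, with no error bars. Acceptor 2 holds 60.4% and 55.6%, and exon 1 has 38879 and 35864 reads per kb.

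Tssc4, whose product takes part in assembling a splicing particle, had 2031 and 1505 reads, 17.6 RPKM (16.8 to 18.4) in BxC and 15.3 (14.6 to 16.1) in CxB. Of its annotated exon bases, 220 are shared with Trpm5 on the other strand, so that reads there cannot be assigned to either gene. Osbpl5, a lipid-transfer protein of membrane contact sites, had 4195 and 4145 reads, 8.60 RPKM (8.34 to 8.86) and 9.98 (9.68 to 10.3). Within its family of oxysterol-binding proteins all 12 genes had at least 100 reads in each library, as had 15427 of 37310 annotated genes. Osbpl5 over its annotated exons (6.73 and 7.81 RPKM) stood near the family median of 5.39 and 5.79. Nap1l4 was the highest of 5 nucleosome assembly genes, ahead of Nap1l5 at 23.1 and 35.3 RPKM. Nap1l5, which is imprinted elsewhere in the genome, had a ratio of CxB over BxC of 0.61 on the log2 scale (0.56 to 0.66), the only one of the 5 past 1.5-fold, beside 1.10% of all annotated genes with at least 100 reads in each library.

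Kcnq1ot1 was seen as a broad block of unspliced reads inside Kcnq1. The catalog lists it as a single block of 83436 bases, chr7:150399017-150482452 on the minus strand, and the annotation used here holds no gene of this name. It had 9070 reads in BxC and 7427 in CxB, 0.843 RPKM (0.826 to 0.861) and 0.811 (0.793 to 0.830), and 69.7% and 65.7% of its bases were covered. Its level per kb was thus low, while its length gave it 13.9% and 13.2% of all reads over the members. No spliced read had both of its blocks inside the interval, but by the study's methods spliced alignments were sought only at junctions of gene models. The interval holds the 12th of 17 annotated Kcnq1 exons and otherwise only intron sequence.

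The introns of Kcnq1 allow the block to be set against its surroundings. Densities are reads per 1000 start positions, scaled to the library total as for RPKM, over start positions whose 36 bases occur once in the genome, with exons left out. Inside the listed interval the density was 0.909 (0.890 to 0.928) in BxC and 0.876 (0.856 to 0.896) in CxB. In the other Kcnq1 introns it was 0.0252 (0.0234 to 0.0270) and 0.0337 (0.0314 to 0.0360), 36.1-fold and 26.01-fold lower. The interval thus held 92.4% of the 9783 Kcnq1 intron reads in BxC and 89.8% of the 8259 in CxB, in 26.1% of the length of the gene.

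The block had a sharp 5′ edge and a gradual 3′ edge. The first 1 kb of the interval had a density of 1.21 (1.03 to 1.42) in BxC and 1.44 (1.22 to 1.68) in CxB. The 1 kb upstream of it had 2 reads and 0 reads, where 0 allows up to 3. The outermost read ended 10 bases inside the listed 5′ end in BxC and 45 bases inside it in CxB. At the other end reads went on past the listed 3′ end. The next 15 kb had 399 and 439 reads, a density of 0.214 (0.194 to 0.236) and 0.277 (0.252 to 0.304), which was 19.5-fold and 16.2-fold above the Kcnq1 introns beyond. The listed interval therefore ended before the reads did.

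**Figure D3:**
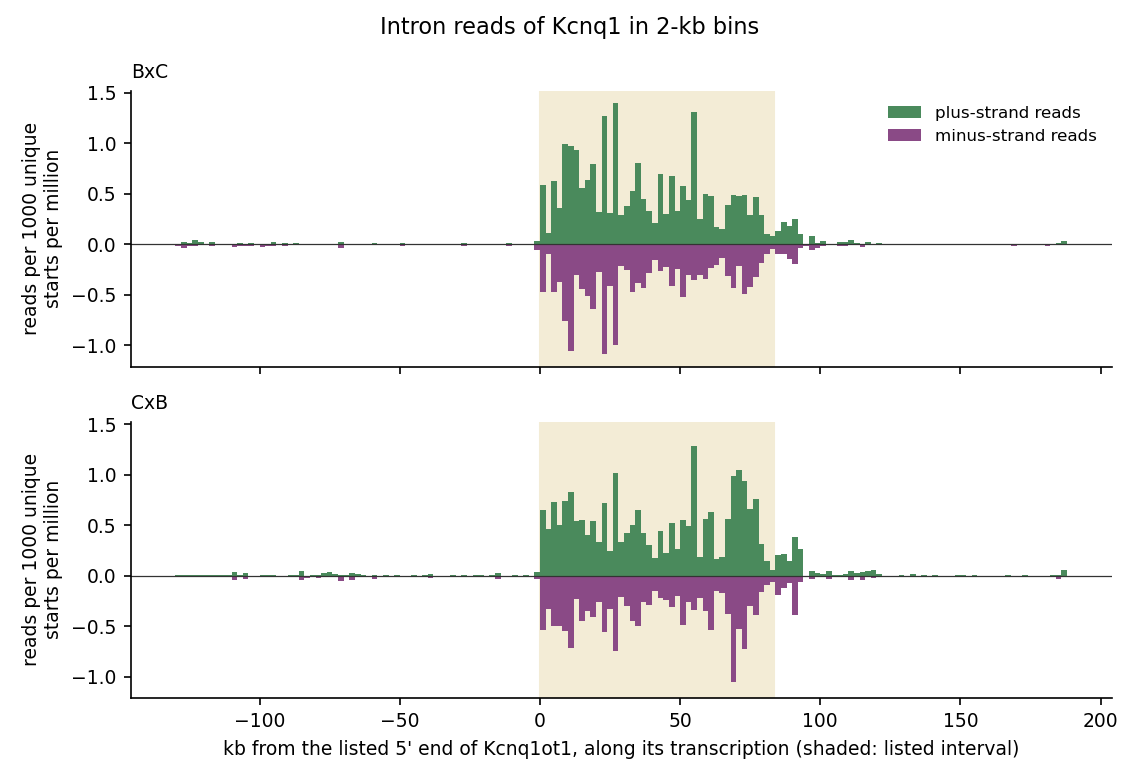
Intron reads of Kcnq1 in bins of 2 kb for BxC (top) and CxB (bottom), by distance from the listed 5′ end of Kcnq1ot1 along its transcription, as reads per 1000 unique start positions scaled to the library total as for RPKM. Plus-strand reads point up and minus-strand reads down, and the shaded part is the listed interval, outside which the density falls by 36.1-fold in BxC and 26.01-fold in CxB.

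The strand of the reads followed Kcnq1ot1 and not Kcnq1 within the block. The study's methods describe a strand-marking second-strand synthesis, but strand was kept only weakly in the files, with reads lying more often on the strand opposite to the gene. Over introns of isolated protein-coding genes with at least 1000 intron reads, the median share of plus-strand reads in BxC was 41.6% for 913 plus-strand genes (5th to 95th percentile 35.4% to 49.6%) and 58.5% for 927 minus-strand genes (49.98% to 64.0%). In CxB the medians were 41.1% for 790 genes and 58.8% for 805. Kcnq1 lies on the plus strand and Kcnq1ot1 on the minus strand. Inside the Kcnq1ot1 interval 57.8% of the intron reads in each library were plus-strand (56.8 to 58.8 in BxC, 56.7 to 59.0 in CxB), within the range of minus-strand genes. In the 15 kb past the 3′ end the share was 61.4% (56.4 to 66.2) and 59.5% (54.7 to 64.1), on the same side. In the Kcnq1 introns upstream of the 5′ end, where Kcnq1ot1 is not listed, it was 47.5% (40.7 to 54.3) of 219 reads and 44.2% (37.9 to 50.7) of 242, on the side of plus-strand genes but with intervals that reach 50%. From 15 kb past the 3′ end to the Kcnq1 start the share was 56.1% (46.9 to 65.0) of 123 reads and 58.3% (50.3 to 65.9) of 163. Over all Kcnq1 introns outside the interval it was 56.4% and 54.9%. The strand thus did not turn to that of Kcnq1 everywhere outside the block.

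The first 200 bases of Kcnq1ot1 went the other way. There 12% (4.53 to 24.3) of 50 reads in BxC and 28.0% (16.2 to 42.5) of 50 in CxB were plus-strand, so that most lay on the strand of the RNA itself. The same switch was general at gene starts in these libraries. In the first 200 bases of 3129 isolated genes in BxC the median share of reads opposite to the gene was 29.1%, against 60.03% over their other exon bases, and in CxB it was 30.6% against 60.7% in 3035 genes. In Cdkn1c 38.8% and 37.9% of the reads in exon 1 were opposite to the gene, against 65.0% to 79.5% in exons 2 to 4 of both libraries. The exon 1 shares rest on 1 start position on the strand of the gene, with 2568 reads in BxC (33.4% of exon 1) and 1159 in CxB (16.3%). Leaving it out, the reads of exon 1 in BxC lay more often opposite to the gene, so the switch there rests on that position. In CxB the remaining reads still lay more often on the strand of the gene. In Tssc4 the opposite shares were 42.9% and 45.5% in the first exon, which is longer at 602 bases, and 61.7% and 62.3% in the second.

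The bases ahead of this edge are those of the imprinting control region, known as KvDMR1. CCAAT is the letter pattern read by the factor NF-Y. Searched on both strands as CCAAT and ATTGG, with no overlap between matches, it occurs 3 times in the window from 250 bases before to 50 bases after the listed 5′ end, all as CCAAT on the strand of Kcnq1ot1. In windows of the same 300 bases at 22380 protein-coding genes, 37.9% held at least 1 match and 3.51% at least 3. The matches begin 188, 148 and 67 bases before the listed end (CCAAT in capitals, minus strand of mm9), and a match of letters is not evidence of binding.
chr7:150482623-150482652: gtacaagctcacCCAATccaaatgctggag
chr7:150482583-150482612: gtttcctcttggCCAATaaaaatagtcagc
chr7:150482502-150482531: ttcagcatctgtCCAATcaacagtgtcgtg

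Along Kcnq1ot1 the libraries differed in shape rather than in sum. Over the whole interval without Kcnq1 exons the log2 ratio of CxB over BxC was −0.05 (−0.10 to −0.01), with exact binomial intervals given the summed reads. In the first 10 kb from the 5′ end it was 0.19 (0.07 to 0.30), with 1225 reads in BxC and 1186 in CxB. From 10 to 20 kb it was −0.45 (−0.56 to −0.34), with 1730 reads in BxC and 1079 in CxB. From 20 to 30 kb it was −0.46 (−0.57 to −0.34), with 1600 and 992 reads. From 40 to 50 kb it was −0.35 (−0.50 to −0.20), with 899 and 599 reads. From 60 to 70 kb it was 0.62 (0.47 to 0.77), with 663 reads in BxC and 866 in CxB, and from 70 to 80 kb it was 0.68 (0.51 to 0.85), with 511 and 696. By reads CxB was thus higher in the first segment, lower from 10 to 30 kb and from 40 to 50 kb, and higher from 60 to 80 kb. Of the 8 segments of 10 kb 3 had a ratio above 0 and 5 below. By distinct positions the first segment was at 0.02 (−0.14 to 0.18). The signs of the 8 segments were the same by distinct positions, with values from −0.35 at 20 to 30 kb to 0.57 at 70 to 80 kb. Only 56.8% of the start positions at 70 to 80 kb are unique in the genome, the lowest share among these segments. The catalog marks Kcnq1ot1 as paternal, and the father was CastEi/J in BxC and C57BL/6J, the strain behind the reference genome, in CxB. How reads of each strain aligned and how much of each RNA was present cannot be told apart without bases.

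**Figure D4:**
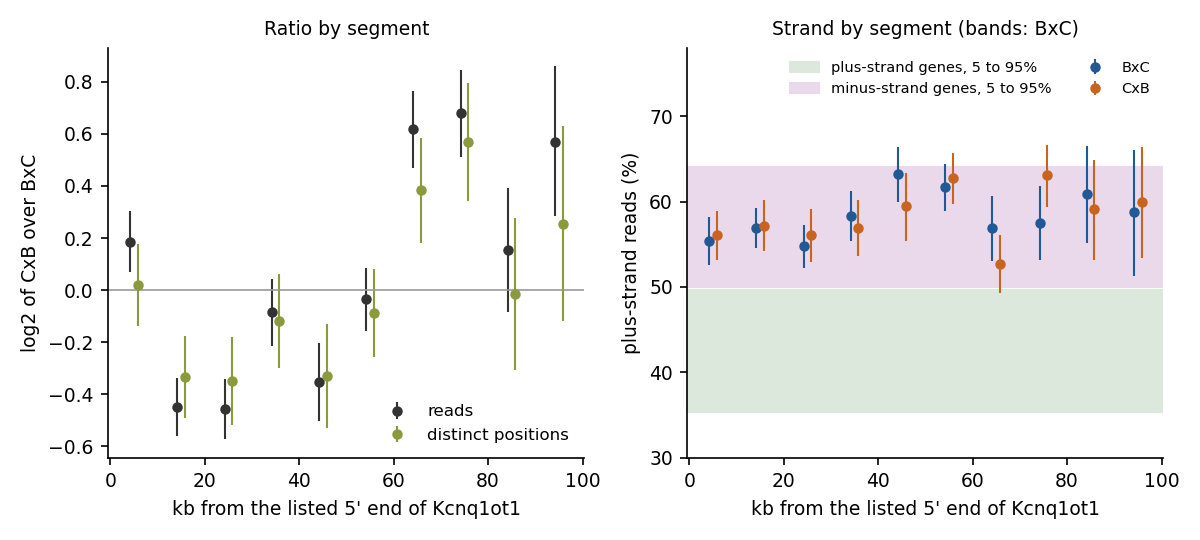
Left, log2 ratio of CxB over BxC in segments of 10 kb from the listed 5′ end of Kcnq1ot1, for reads and for distinct positions, with exact 95% intervals. Right, percent of plus-strand reads in the same segments, with bands for the 5th to 95th percentile of introns of plus-strand and minus-strand genes in BxC. Ratios run from −0.46 to 0.68 over the 8 segments inside the interval, and all 8 have more plus-strand than minus-strand reads in both libraries.

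Kcnq1 itself, the voltage-gated potassium channel of heart and inner ear, was near the limit of detection as a spliced mRNA. Its exons had 134 reads in BxC and 123 in CxB, 0.343 RPKM (0.287 to 0.406) and 0.370 (0.308 to 0.442). Of these, 26 and 12 lay in the exon inside the Kcnq1ot1 interval, where reads of the RNAs cannot be told apart. Spliced reads were 9 in BxC and 20 in CxB, and only 2 of 17 annotated junctions were seen in both libraries. The junction with the most reads summed over both libraries (5 and 2) is printed because it ties exons that lie outside Kcnq1ot1 into a Kcnq1 transcript, with the last 15 bases before and the first 15 after the intron chr7:150549600-150611814, the first 3 of these in capitals.
Kcnq1, plus strand: agggtggaagacaagGTGacacaactggac

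The density of reads in Kcnq1 introns was 102% of that in its exons in BxC and 91.0% in CxB, counting reads on the strand of the gene. Over 12738 protein-coding genes the median was 3.83% and 3.84%, and 99.6% and 99.4% of them had a lower ratio than Kcnq1. For Nap1l4 the ratio was 1.02% and 1.08%, for Cd81 1.37% and 1.32%, and for Osbpl5 4.13% and 4.21%. Intron reads of Kcnq1 are thus not a measure of its own transcript. Of the same family, Kcnq3 had 8.39 RPKM in BxC and 7.88 in CxB and Kcnq5 had 3.74 and 4.55, both above Kcnq1. Both are channels known from neurons.

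The placenta-type genes were low in both libraries. In the list used here Ascl2, Phlda2, Slc22a18, Tnfrsf22, Tnfrsf23 and Tnfrsf26 are placenta-type, the last of these and Tnfrsf22 being annotated genes of the region outside the catalog. Their median was 0.163 RPKM in BxC and 0.244 in CxB. The brain-expressed list, of genes broadly or neurally expressed, holds Cdkn1c, Kcnq1ot1, Cd81, Tssc4, Nap1l4, Osbpl5, Dhcr7 and Cars. Its medians were 15.9 and 14.2, which is 97.5-fold and 58.2-fold higher by reads, and 46.9-fold and 28.2-fold higher by distinct positions. Both lists were drawn up by expression or function, with earlier results of these data known. The gap therefore describes the lists and is not a test of them. The lists did not separate completely. Tnfrsf22 was the highest placenta-type gene with 0.640 RPKM (0.575 to 0.711) in BxC and 0.893 (0.810 to 0.983) in CxB, and in CxB its level was above the 0.811 of Kcnq1ot1, the lowest of the brain-expressed list.

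Ascl2, a transcription factor that trophoblast precursors require, had 18 reads in BxC and 25 in CxB, 0.0889 RPKM (0.0527 to 0.140) and 0.145 (0.0939 to 0.214). Phlda2, which restrains growth of the placenta, had 4 reads in BxC and 23 in CxB, 0.0421 RPKM (0.0115 to 0.108) and 0.284 (0.180 to 0.427). Phlda1 and Phlda3 of the same family stood at 9.52 to 12.04 RPKM in both libraries. Slc22a18, a membrane transporter, had 73 and 35 reads under its Slc22a1I/Impt1 entry, 0.389 RPKM (0.305 to 0.489) and 0.219 (0.153 to 0.305), and 72 and 35 under the Tssc5 entry.

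Tnfrsf23, a decoy receptor of the TNF receptor family, had 100 reads in BxC and 97 in CxB, 0.236 RPKM (0.192 to 0.287) and 0.269 (0.219 to 0.329). Only 66.3% of its start positions are unique in the genome, and 29.6% of the 36-base windows of its annotated exons occur also in Tnfrsf22. Its level is therefore understated, and per unique start position it was 0.308 and 0.380. Reads on the junction chr7:150865979-150867364, 18 in BxC and 12 in CxB, place some of them in a spliced transcript, printed with the first 3 bases after the junction in capitals.
Tnfrsf23, minus strand: agacctgtccctcagGTAcatttgtcaagg

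Markers of trophoblast and placenta were close to absent. Of 12 such genes none had 10 reads in each library, and together they had 26 reads in BxC and 31 in CxB, with Tpbpa, Prl3b1 and Prl2c2 at 0 in both. All 4 neuronal markers matched in the annotation and all 5 progenitor markers had at least 100 reads in each library, with Tubb3 at 974 and 840 RPKM. Choroid plexus, meninges, vessels and blood were also represented, with Ttr at 253 and 281 RPKM and Hbb-b1 at 187 and 153. In whole brain, fewer cells of a type and less RNA per cell cannot be told apart.

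Of the members on neither list besides Kcnq1, Tspan32, a tetraspanin of blood cells, had 30 reads in BxC and 5 in CxB, 0.128 RPKM (0.0861 to 0.182) and 0.024998 (0.00812 to 0.0583). Msuit, a transcript of 317 bases upstream of Cdkn1c without an annotated gene, had 9 and 18 reads, 0.220 RPKM (0.101 to 0.418) and 0.518 (0.307 to 0.818). Of the 18 Msuit reads in CxB, 17 lay on the strand opposite to the listed one, against 5 of 9 in BxC.

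Because each cross has 1 library, the spread between replicates is unknown and nothing was tested, so a ratio is given as log2 of CxB over BxC in reads scaled to the library total, with an exact interval for counting error, and 1.5-fold with at least 100 reads in each library is used as a mark of size between the crosses. Of 7 entries with that many reads, which include the lowly expressed Kcnq1, 0 passed 1.5-fold, beside 1.10% of 15427 annotated genes, of which 0.473% were higher and 0.622% lower in CxB. Their median ratio was 0.00, like that of all genes tested, and they ranged from −0.20 to 0.22.

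**Figure D5:**
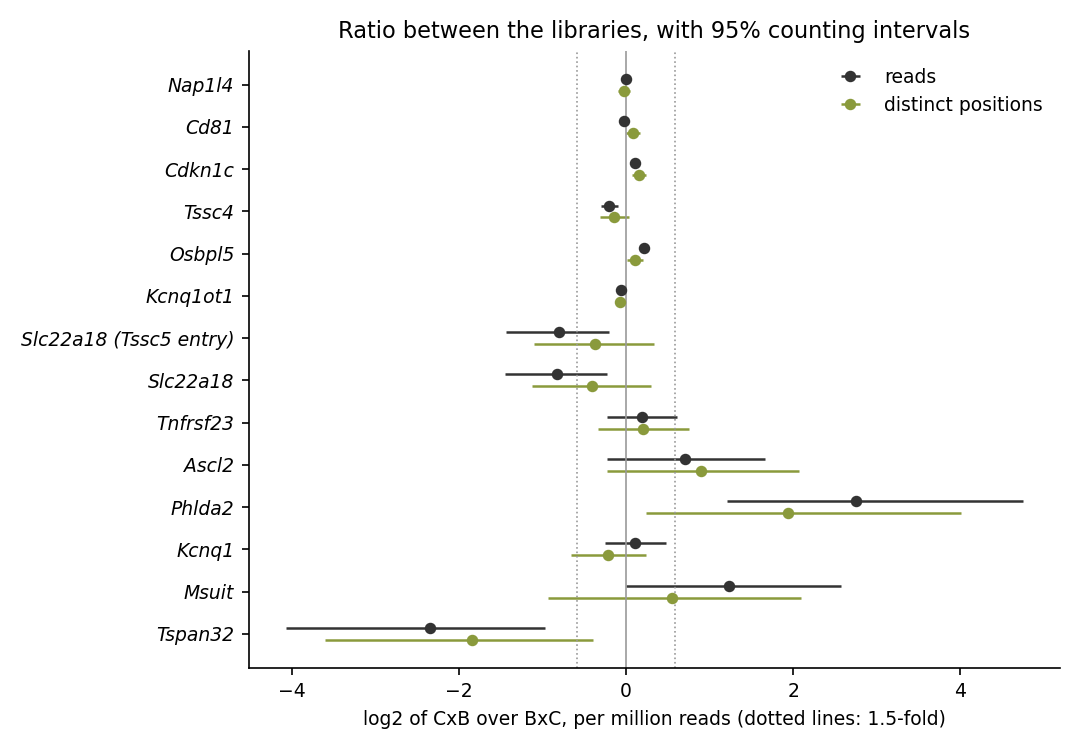
Log2 ratio of CxB over BxC for the 14 entries, for reads (black) and distinct positions (green), with exact 95% intervals for counting error and dotted lines at 1.5-fold. The 7 entries that reach 100 reads in both libraries lie between −0.20 and 0.22 by reads, and the wide intervals belong to entries with few reads.

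Osbpl5 had the highest of these ratios at 0.22 (0.15 to 0.28) and Tssc4 the lowest at −0.20 (−0.30 to −0.10). Cdkn1c was at 0.11 (0.08 to 0.15) over its catalog entry and 0.09 (0.06 to 0.12) over its annotated exons, Kcnq1ot1 at −0.06 (−0.10 to −0.01) and Cd81 at −0.03 (−0.07 to 0.01). Nap1l4 was at 0.00 (−0.03 to 0.03). Kcnq1 was at 0.11 (−0.26 to 0.47) by reads and at −0.21 (−0.66 to 0.23) by distinct positions, and both intervals include 0. The middle 50% of annotated genes lay between −0.10 and 0.10, so that by reads Osbpl5, Tssc4, Kcnq1 and the catalog entry of Cdkn1c stood outside it, while Cdkn1c over its annotated exons lay inside. Both Cdkn1c ratios include the exon 1 start position that was lower in CxB, with 2568 and 1159 reads. Where they would lie without it was not counted. By distinct positions the catalog entry of Cdkn1c was at 0.15 (0.07 to 0.24). The spread between brains of 1 cross is not known from these files.

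With a minimum of 10 reads in each library, 2 of 10 genes, or 3 of 11 entries with Slc22a18 counted under both of its names, passed 1.5-fold, beside 7.74% of 19839 annotated genes, with 3.75% lower in CxB and 793 genes higher. They are Ascl2, higher in CxB at 0.71 (−0.23 to 1.67), and both entries of Slc22a18, lower at −0.81 (−1.43 to −0.21) and −0.83 (−1.45 to −0.23). By distinct positions Slc22a18 did not pass 1.5-fold, at −0.37 (−1.10 to 0.34) and −0.40 (−1.13 to 0.30). With a minimum of 1 read, 6 of 14 entries passed, again with Slc22a18 under both names, beside 19.1% of 24355 genes, of which 9.48% were higher and 9.61% lower in CxB. The larger ratios stood on fewer reads still. Phlda2 was 6.76-fold higher in CxB by reads (2.76 on the log2 scale, 1.21 to 4.75), from 4 and 23 reads at 4 and 13 distinct positions. Msuit was higher in CxB at 1.23 (0.00 to 2.57) by reads and 0.55 (−0.94 to 2.10) by distinct positions. Tspan32 was lower in CxB at −2.35 (−4.08 to −0.97). Over the annotated exons of the gene, which hold more bases than the catalog entry, the reads were 42 and 18 and the gap was smaller. Of the 4 blood markers, Hba-a1, Hbb-b1 and Alas2 had ratios of −0.28, −0.30 and −0.51 and Ptprc, with fewer than 100 reads, 0.18, and their part in the Tspan32 value was not tested. The summed level of the 4 blood markers was 279 RPKM in BxC and 227 in CxB, and of the 12 placental markers, beside which the Phlda2 value stands, 0.0792 and 0.112.

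The 3 genes annotated between the members that reached 100 reads in each library had ratios of −0.40 to 0.48. This range is wider than that of the members with 100 reads. Its ends, Trpm5 and Tnfrsf22, stand on fewer reads than any of those members but Kcnq1, and members under 100 reads ranged from −2.35 to 2.76. Cars, a cysteinyl-tRNA synthetase, had 7.14 and 7.03 RPKM and a ratio of −0.02 (−0.09 to 0.04). Trpm5, a cation channel of taste cells, had 0.613 and 0.464 RPKM and a ratio of −0.40 (−0.61 to −0.20), in part over bases shared with Tssc4. Tnfrsf22 had a ratio of 0.48 (0.27 to 0.69). Of the 3 neighbours with at least 100 reads in each library none passed 1.5-fold. Tnfrsf26, with 17 and 32 reads, was at 1.15 (0.25 to 2.09).

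The machinery that Kcnq1ot1 is known to work with was present in both libraries. All 8 genes of the list of Polycomb subunits, H3K9 methyltransferases and maintenance methylation (Ezh2, Eed, Suz12, Rnf2, Ring1, Ehmt1, Ehmt2 and Dnmt1) had at least 100 reads in each library, as had 15427 of 37310 annotated genes. None of the 8 passed 1.5-fold, beside the 1.10% of all genes with that many reads. The highest was Ehmt2 at 41.0 RPKM in BxC and 39.6 in CxB, Dnmt1 had 39.7 and 38.7, and Ezh2 7.25 and 7.598. Of the cholesterol list, 8 of 9 genes matched the annotation and 0 of those 8 passed 1.5-fold, and Dhcr7, the last step of the pathway and a gene of the brain-expressed list outside the catalog, had 14.1 and 13.1 RPKM.

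Spliced reads were unequally spread over the members. Nap1l4 had 8164 spliced reads in BxC and 6294 in CxB, from 657 and 577 distinct alignments, with 16 of 17 annotated junctions seen in both. Cd81 had 798 and 591 from 266 and 214 alignments. Cdkn1c, with 63.7 and 67.7 RPKM over annotated exons against 44.8 and 43.6 for Cd81, had fewer, at 529 and 444. These counts therefore do not rank the members by level. Osbpl5 had 512 and 534. Tssc4 had 37 and 18, Tnfrsf23 19 and 12, Slc22a18 7 and 8, Phlda2 0 and 4 and Ascl2 2 and 0, while Tspan32 had none. For Tspan32 a count of 0 allows up to 3 spliced reads in each library. The exact binomial interval, a slightly wider limit, reaches 8.41% of its 42 exon reads in BxC and 18.5% of 18 in CxB. The strand of spliced reads varied from gene to gene. Among Nap1l4, Cd81, Cdkn1c and Osbpl5 the share opposite to the gene ran from 42.6% in Nap1l4 to 91.5% in Cdkn1c in BxC, and from 42.7% to 89.2% in CxB. With few spliced reads the shares lay further apart, at 2.70% and 16.7% in Tssc4 and 94.7% and 100% in Tnfrsf23. The junctions of Nap1l4 and Osbpl5 with the most reads summed over both libraries, chr7:150726152-150727652 (2284 and 1754 reads) and chr7:150887196-150888594 (69 and 79), are printed with the first 3 bases after the junction in capitals to set a highly and a moderately expressed member side by side.
Nap1l4, minus strand: gatggcagaaaacagTCTttcagatggagg
Osbpl5, minus strand: tataagaagcccaagGGCatcaagaaaccc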

How the data were processed

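Whole-brain RNA was analysed in 1 BxC and 1 CxB file, each counted as 1 library. Reads of 36 bases were aligned by the authors with Novoalign, per the labels to mm9, and by the study's methods to gene models, splice junctions and the genome, with unique alignments kept. Which of the alignments described was deposited is not stated. Each deposited line holds a position, a strand and a whole-number count, taken as how many identical reads the line stands for. This meaning was inferred from the values, and the counts were not normalized. Because unique alignments were kept, members with near-identical copies are undercounted. The deposited catalog (other than counts, 1 transcript an entry) was compiled by the authors from the literature. All value columns belong to a library or the catalog, and 0 were unassigned.

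Reads were counted where a block overlapped exons, on either strand, with Python 3.11.15, numpy 2.4.6, scipy 1.17.1, numba 0.67.0 and pandas 2.3.3. Intron reads lay wholly inside introns without annotated exons. The annotation was GENCODE vM1 on the same build, with 37310 genes. Intervals are exact Poisson or Clopper-Pearson at 95%, and 0 allows 3 reads. They and this limit cover counting error only. One read is 0.00776 RPM in BxC and 0.00911 in CxB. No test was made with 1 library per cross. The ratio and its interval were tested on simulated independent Poisson counts. These hold no copied reads, so the simulation does not show how well the intervals cover the error in these files.

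Named genes are all members, annotated coding genes between them, and the lists. Members and lists were chosen with earlier results of these data known, and the genes Map2, Hmgcs1 and Ascl5 of the lists did not match the annotation. Some genes of the lists are not reported here. Junctions named are the one with the most reads per gene, summed over both libraries, for genes whose junctions are printed, and those outside the annotation with at least 10 reads in each library. Alternatives were distinct positions, sense reads only, other exons, minimums, folds and scalings. Unique start positions, reads opposite to the gene and a Kcnq1ot1 interval without its ends were added after seeing the data.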

Additional observations from a re-analysis of the deposited data

How the results depend on the processing

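No paired analysis was possible because there is 1 library for each cross. All values have counting error only behind them, and the entries under 100 reads are limited by depth. Counting at least 100 reads left 7 members in place of 11. The count past 1.5-fold was 0, and 3 with a minimum of 10 reads and 6 with a minimum of 1, both counting Slc22a18 under each of its 2 entries, beside 7.74% and 19.1% of all genes under the same minimums. It stayed at 0 with distinct positions and with sense reads. Under these 2 settings Kcnq1 fell below 100, with 75 distinct positions in CxB and 54 and 51 sense reads. Their counts and medians are therefore without it, and a median can move for that reason alone. The count was also 0 under both other scalings, which moved the ratios very little, and with a fold of 2, which cannot add entries. The median ratio moved from 0.00 to −0.0399 with sense reads only, and with distinct positions the ratio changed sign in Cd81, from −0.03 to 0.08, and in Kcnq1, from 0.11 to −0.21. The cause was not tested.

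Distinct positions, sense reads only and opposite-strand reads only, which hold fewer reads or another total by construction, gave median levels of 0.883, 0.158 and 0.231 RPKM in BxC, and the first 2 gave 0.904 and 0.139 in CxB. With distinct positions the sense share was 51.3% in place of 44.2% in BxC and 50.3% in place of 43.4% in CxB, the plus-strand share inside Kcnq1ot1 was 55.7% in BxC, and spliced alignments numbered 1301 in place of 10077 and 1169 in place of 7925. The median intron density of 4 members (Cd81, Kcnq1, Nap1l4 and Osbpl5), 2.75% and 2.77% of the exon density, was 4.15% and 3.90% with distinct positions, 3.01% and 2.98% outside the gene's own exons, and 2.55% and 2.36% on either strand. It includes Kcnq1, whose intron reads are not a measure of its own transcript. Without Kcnq1 the middle value would be that of Cd81, 1.37% and 1.32%. The fold between the medians of the brain-expressed and the placenta-type list, 97.5 and 58.2, was 46.9 and 28.2 with distinct positions, 69.8 and 47.3 without members that overlap another gene, and 123 in BxC with sense reads only. It was 82.1 and 64.5 with unique start positions, without Dhcr7, an alternative chosen after seeing the data, as were the opposite-strand reads. The brain-expressed median was the higher under each of these, but the lists were chosen with earlier results of these data known. Of the values under alternatives, 28 for the questions asked and 20 for single genes kept within the counting interval or 1.5 times the count, and 25 and 6 did not.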
